A study of Mus musculus with 12 samples.

Results

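The 10 genes described here code for the 3 transforming growth factor β (TGFβ) ligands (Tgfb1, Tgfb2, Tgfb3), 3 receptors (Tgfbr1, Tgfbr2, Tgfbr3) and 4 latent TGFβ binding proteins (Ltbp1, Ltbp2, Ltbp3, Ltbp4), out of 55487 genes in the count table. They were chosen by symbol, not by their values. Each symbol matched 1 mouse Ensembl identifier, and 7 of the 10 passed the filter on low counts, among 12897 genes tested. Tgfb3, Ltbp2 and Ltbp4 did not.

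TGFβ is secreted as a latent complex. The ligand dimer stays bound to its own propeptide, and the propeptide is disulfide-linked to a latent TGFβ binding protein (LTBP), which fixes the complex to the extracellular matrix. Once released, the ligand binds the type II receptor TGFBR2, which phosphorylates the type I receptor TGFBR1, and the type I receptor phosphorylates SMAD2 and SMAD3. TGFBR3 (betaglycan) has no kinase activity and presents ligand to the type II receptor, and it is known for binding TGFβ2, which by itself binds TGFBR2 weakly. In the kidney this pathway is known for driving tubular injury toward fibrosis.

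The cells were mouse tubular epithelial cells (im_TEC), conditionally immortalised with the SV40 large T antigen. All libraries came from cells kept at 33 °C with interferon γ and then held at 37 °C without it for 7 days. There were 4 groups of 3 libraries: cells labelled Nnmt-OE with TGFβ, cells labelled Nnmt-OE without it, mock-transduced cells with TGFβ and mock-transduced cells without it. The Nnmt construct was meant to express nicotinamide N-methyltransferase, both constructs were selected with puromycin, and treated cells received 10 ng/mL TGFβ over 48 h. The sources used here give neither the isoform of the added TGFβ, nor the promoter of the construct, nor whether replicates were separate cultures. The p-values therefore reflect how far these libraries scatter, which may be technical.

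Reads assigned to genes ranged from 4733846 to 7247413 per library, and 1 read was worth 0.138 to 0.212 on the counts-per-million scale (CPM, scaled by TMM). Nnmt stood at 33.9, 22.5 and 26.3 CPM in Nnmt-OE with TGFβ and 24.5, 28.5 and 22.9 CPM in untreated Nnmt-OE, against 33.4, 29.7 and 27.9 CPM in mock with TGFβ and 24.7, 17.8 and 18.3 CPM in mock. It was not called between the constructs without TGFβ (edgeR adjusted p = 0.897) or with it (edgeR adjusted p = 0.998). Tags near the native end of the transcript may not count a construct that lacks that end, so directions for the construct rest on the label. Among 20 renal epithelial markers 11 reached 1 CPM in a group, Pax2, Pax8, Lrp2 and Aqp1 among them. Of those 11, Krt18, Cubn, Slc5a2 and Slc12a1 had highest group means of only 1.39, 1.31, 1.93 and 1.13 CPM. No reads were found for 6 of the 20: Epcam, Cdh1, Slc22a6, Umod, Slc12a3 and Aqp2. Podocyte markers reached 1 CPM for 2 of 4, with Synpo at 137.3 and Podxl at 73.3 CPM in mock. Leukocyte markers did so for 1 of 6 (Cd68). Of 6 endothelial markers none reached 1 CPM. Library codes of the groups do not interleave, so handling and group cannot be told apart. An earlier analysis found 3 libraries to stand apart: replicate 3 of each TGFβ-treated group and replicate 1 of untreated mock. Each edgeR call of the 7 tested genes in the fit of all libraries was also made without them. For genes of the other pathway lists no fit without them is given.

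The 10 genes spanned levels from almost no reads to more than most genes tested. The libraries count about 1 tag per transcript near its end, so CPM was compared between genes without scaling by length. How evenly tags count different genes was not tested, so comparisons between genes describe reads, not transcript ratios. Tgfb2 averaged 227.6 ± 27.6 CPM over the 12 libraries (SD) and stood at or above 94.2% of the genes tested. Tgfbr2, the type II receptor gene, averaged 195.5 ± 19.8 CPM, and the ranges of these 2 genes over the 12 libraries overlapped. Ltbp3 followed at 129.1 ± 27.8 CPM. Tgfbr3 and Ltbp1 were next and close together, at 25.2 ± 7.84 and 24.9 ± 8.89 CPM. Tgfbr1, the type I receptor gene, averaged 15.3 ± 3.37 CPM and Tgfb1 8.88 ± 2.02 CPM. The last 3 were near the detection limit, with Ltbp4 at 0.613, Tgfb3 at 0.457 and Ltbp2 at 0.265 CPM.

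In every group, reads of Tgfb2 made up nearly all ligand reads. The share was 96.5 ± 1.1% in Nnmt-OE with TGFβ, 95.9 ± 0.85% in Nnmt-OE, 96.2 ± 0.7% in mock with TGFβ and 95.4 ± 1.5% in mock (SD, n = 3 each). Ltbp3 held a similar place among binding proteins in untreated cells, with 88.3 ± 0.85% of Ltbp reads in Nnmt-OE and 88.5 ± 3.1% in mock. Type II receptor reads outnumbered type I receptor reads throughout: Tgfbr2 made up 78.0 to 87.8% of receptor reads and Tgfbr1 5.02 to 7.95% over the 12 libraries.

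**Figure D1:**
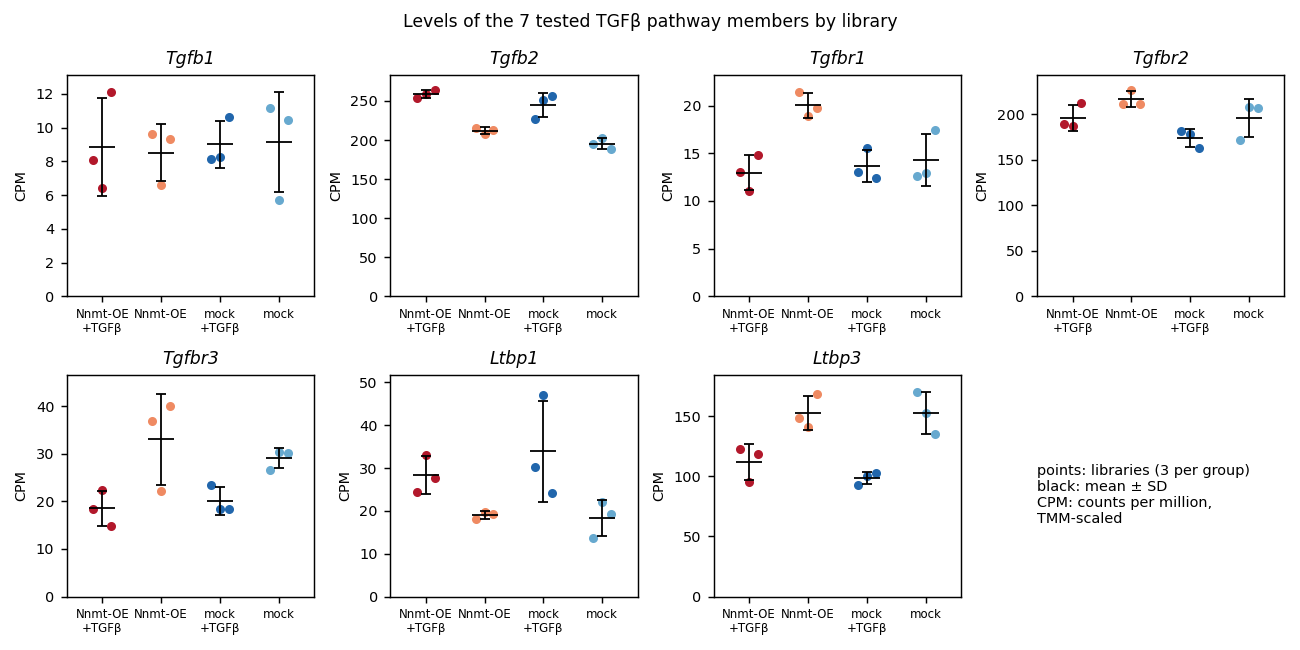
CPM (TMM-scaled, vertical axes from 0) of the 7 tested genes in each library, with black bars for mean ± SD of 3 libraries per group. Tgfb2 and Ltbp1 points of TGFβ-treated libraries lie above those of untreated libraries of the same construct, and Ltbp3 points lie below them.

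With TGFβ, messengers of its own pathway differed in both directions. Over both constructs, Ltbp1 and Tgfb2 rose and Ltbp3 and Tgfbr3 fell, while Tgfb1, Tgfbr1 and Tgfbr2 were not called. The pooled comparison is the mean of the TGFβ effect in mock and in Nnmt-OE, with 6 treated and 6 untreated libraries. It called 2 of the 7 higher, against 2.48% of all genes tested, and 2 of the 7 lower, against 2.6% of all (edgeR quasi-likelihood test, Benjamini-Hochberg adjustment over 12897 genes, threshold 0.05). Tgfb2, Tgfbr3, Ltbp1 and Ltbp3 were each called in all 20 alternative fits, the one without the 3 libraries that stood apart included. The median log2 fold change of the 7 was -0.16, against -0.005 over all genes tested. In bulk RNA a lower level cannot be told apart from fewer cells of a type. Summed CPM of 8 fibroblast markers was 10.7 to 16.1 in Nnmt-OE with TGFβ against 1.61 to 8.04 in Nnmt-OE, and 7.96 to 13.7 in mock with TGFβ against 3.38 to 6.54 in mock. Of those 8, 2 (Col1a1, Col1a2) reached 1 CPM in a group, and Lum, Col3a1 and Thy1 had no reads. Col1a1 and Col1a2 are also on the list of TGFβ target genes used below, and both were called higher in the pooled comparison. A higher sum therefore cannot be told apart from a response of those 2 genes. Summed CPM of the renal epithelial markers was 1543 to 1699 in Nnmt-OE with TGFβ against 2015 to 2062 in Nnmt-OE, and 1501 to 1537 in mock with TGFβ against 1704 to 2006 in mock. The part of either in these changes was not tested.

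Among the ligands, Tgfb2 was higher with TGFβ in each construct by a small factor. It measured 226.7, 251.2 and 256.0 CPM in mock with TGFβ, against 194.9, 202.3 and 188.1 CPM in mock. In Nnmt-OE it measured 253.4, 259.1 and 263.8 CPM with TGFβ, against 215.8, 207.4 and 212.7 CPM without. All treated values stood above all untreated values of the same construct. The pooled log2 fold change was 0.31 ± 0.06 (SE), a 1.24-fold rise (95% interval 1.13 to 1.35, edgeR adjusted p = 0.00203). Within a construct the values were 0.33 ± 0.09 in mock (edgeR adjusted p = 0.062) and 0.29 ± 0.09 in Nnmt-OE (edgeR adjusted p = 0.116), neither called by edgeR in the fit of all 4 groups, while DESeq2 called both (adjusted p = 0.00812 and 0.031).

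Tgfb1, the isoform most often linked to renal fibrosis, was not called. It stood at 8.13, 8.28 and 10.6 CPM in mock with TGFβ, against 11.2, 5.73 and 10.5 CPM in mock. In Nnmt-OE the values were 8.10, 6.40 and 12.1 CPM with TGFβ, against 9.65, 6.60 and 9.33 CPM without. Groups overlapped in each construct. The pooled log2 fold change was 0.01 ± 0.26 (95% interval -0.51 to 0.53, edgeR adjusted p = 0.991), so a change of up to 1.44-fold upward lies within the interval, and so does the estimate for Tgfb2. Counts of 27 to 64 reads per library limit the precision here.

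Tgfb3 had 0 to 10 reads per library. Its reads summed to 12 in mock with TGFβ (exact Poisson 95% interval 6.2 to 21) against 2 in mock (0.242 to 7.22), and to 8 in Nnmt-OE with TGFβ (3.45 to 15.8) against 9 in Nnmt-OE (4.12 to 17.1). In mock with TGFβ, 10 of the 12 reads came from replicate 3, so no direction is given. Such intervals cover counting error only.

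Among the receptors, the co-receptor gene Tgfbr3 fell with TGFβ. It measured 23.4, 18.5 and 18.4 CPM in mock with TGFβ, against 26.7, 30.3 and 30.2 CPM in mock. In Nnmt-OE it measured 18.4, 22.3 and 14.8 CPM with TGFβ, against 36.8, 22.2 and 40.1 CPM without. The mock groups did not overlap, whereas replicate 2 of untreated Nnmt-OE, at 22.2 CPM, fell within the range of the treated libraries. The pooled log2 fold change was -0.68 ± 0.16, a level 0.625 times that of untreated cells (95% interval 0.499 to 0.783, edgeR adjusted p = 0.00634). Neither construct gave a call alone, with log2 -0.53 ± 0.23 in mock (edgeR adjusted p = 0.318) and -0.83 ± 0.23 in Nnmt-OE (edgeR adjusted p = 0.0544). The Nnmt-OE value became a call by DESeq2 (adjusted p = 0.0312), and by edgeR without Nnmt-OE replicate 2 (log2 -1.05, edgeR adjusted p = 0.0126), mock replicate 1 (edgeR adjusted p = 0.0348) or mock with TGFβ replicate 3 (edgeR adjusted p = 0.0451). It was also called by edgeR with library totals (edgeR adjusted p = 0.0479), without a filter (edgeR adjusted p = 0.0347) and in the fit of the Nnmt-OE groups alone (edgeR adjusted p = 0.0309). A GENCODE gene of uncertain status on the same strand, Gm43422, shares 297 exonic bases with Tgfbr3 and held 105 reads in all.

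The kinase receptors were not called in any comparison by edgeR in the fit of all groups. Tgfbr2 measured 181.2, 178.3 and 162.6 CPM in mock with TGFβ against 171.4, 208.1 and 207.0 CPM in mock, and 188.7, 187.1 and 212.5 CPM in Nnmt-OE with TGFβ against 211.4, 226.5 and 211.4 CPM in Nnmt-OE. Its pooled log2 fold change was -0.16 ± 0.07 (95% interval -0.30 to -0.01, edgeR adjusted p = 0.249). Tgfbr1 measured 13.0, 15.6 and 12.4 CPM in mock with TGFβ against 12.6, 12.9 and 17.5 CPM in mock, and the groups overlapped. In Nnmt-OE it measured 13.1, 11.1 and 14.8 CPM with TGFβ against 21.4, 18.9 and 19.8 CPM without, and the groups did not overlap. That difference had a log2 fold change of -0.63 ± 0.26 (edgeR adjusted p = 0.312), against -0.07 ± 0.26 in mock (edgeR adjusted p = 0.96). The difference between the constructs was itself tested, at log2 -0.56 ± 0.37 (interaction, edgeR adjusted p = 0.999).

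Of the binding protein genes, Ltbp1 rose and Ltbp3 fell. Ltbp1, the founding member of the family, which targets latent TGFβ to matrix fibrils, measured 30.3, 47.2 and 24.2 CPM in mock with TGFβ, against 13.7, 22.1 and 19.3 CPM in mock. In Nnmt-OE it measured 24.3, 33.1 and 27.7 CPM with TGFβ, against 18.1, 19.8 and 19.4 CPM without. Treated and untreated values did not overlap in either construct, and mock with TGFβ replicate 2 was the highest library. The pooled log2 fold change was 0.73 ± 0.17, a 1.66-fold rise (95% interval 1.32 to 2.1, edgeR adjusted p = 0.00424). In mock the rise was 1.86-fold (log2 0.89 ± 0.24, edgeR adjusted p = 0.0393), and in Nnmt-OE the log2 value of 0.57 ± 0.24 was not called (edgeR adjusted p = 0.302). The mock call ended without mock with TGFβ replicate 2 (log2 0.58, edgeR adjusted p = 0.432), mock replicate 1 (0.72, edgeR adjusted p = 0.212), mock replicate 3 (0.94, edgeR adjusted p = 0.0669), mock with TGFβ replicate 1 (0.97, edgeR adjusted p = 0.0605), and in the fit of the mock groups alone (edgeR adjusted p = 0.125). The pooled call held in all of these fits that include both constructs, with a highest edgeR adjusted p of 0.0459 without mock with TGFβ replicate 2.

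Ltbp3, which like Ltbp1 binds the small latent complex, fell with TGFβ in each construct. It measured 92.9, 100.6 and 102.7 CPM in mock with TGFβ, against 170.0, 153.1 and 135.3 CPM in mock. In Nnmt-OE it measured 122.8, 95.2 and 118.2 CPM with TGFβ, against 148.3, 141.1 and 168.6 CPM without. No treated value reached an untreated one. The level with TGFβ was 0.646 times that without it in mock (log2 -0.63 ± 0.12, edgeR adjusted p = 0.00109) and 0.734 times in Nnmt-OE (log2 -0.45 ± 0.12, edgeR adjusted p = 0.0395). Pooled, the log2 fold change was -0.54 ± 0.08 (95% interval -0.71 to -0.37, edgeR adjusted p = 1.86e-05). The Nnmt-OE call ended in 6 of the 12 fits without 1 library: without Nnmt-OE with TGFβ replicate 1 (edgeR adjusted p = 0.051), replicate 2 (0.293) or replicate 3 (0.0887), without Nnmt-OE replicate 1 (0.0914) or replicate 3 (0.267), and without mock with TGFβ replicate 2 (0.0541). The log2 value stayed between -0.52 and -0.34 over those 12 fits.

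Counted within a construct, edgeR called 1 of the 7 genes higher in mock (Ltbp1, against 0.667% of all genes tested) and 1 lower (Ltbp3, against 0.76%). In Nnmt-OE it called 1 lower (Ltbp3, against 0.744%). Libraries of the treated and untreated groups did not overlap for 4 of 7 genes in mock (Tgfb2, Tgfbr3, Ltbp1, Ltbp3), against 16.4% of all genes, and for 4 of 7 in Nnmt-OE (Tgfb2, Tgfbr1, Ltbp1, Ltbp3), against 17.6% of all.

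**Figure D2:**
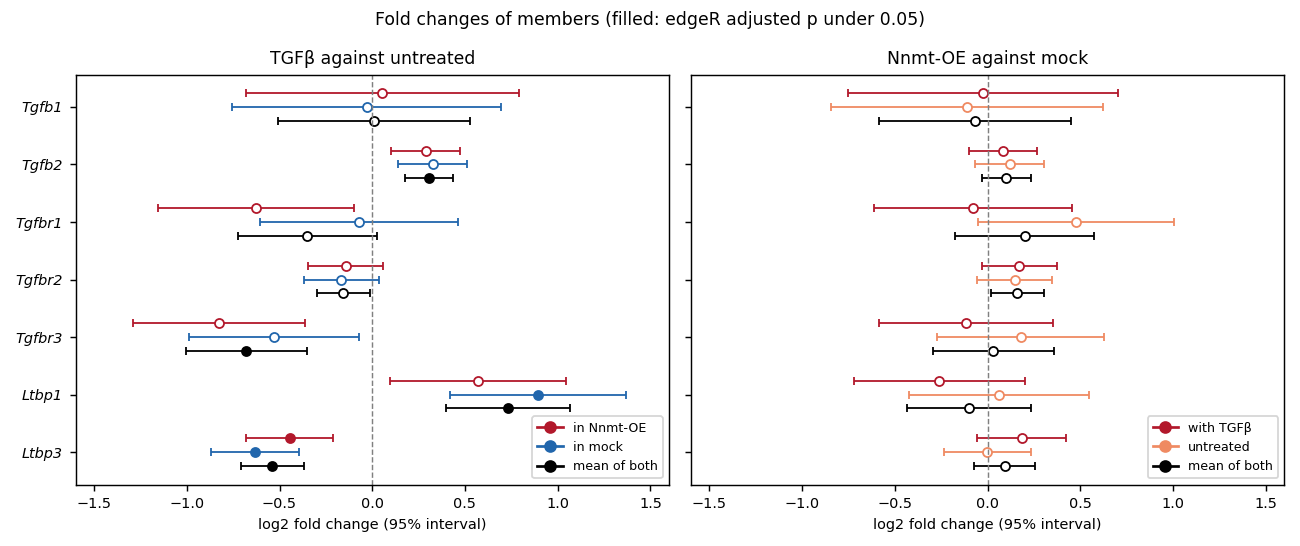
Log2 fold change with its 95% interval (horizontal axes) for the 7 tested genes, for TGFβ against untreated on the left and Nnmt-OE against mock on the right, with filled points where edgeR's adjusted p was under 0.05. In the TGFβ panel the pooled points of Ltbp1 (0.73) and Tgfb2 (0.31) are filled to the right of 0 and those of Ltbp3 (-0.54) and Tgfbr3 (-0.68) to the left, and in the construct panel every point is open.

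Ltbp1 held a larger share of the Ltbp reads with TGFβ. Ltbp1 made up 24.5, 31.8 and 19.0% of Ltbp reads in mock with TGFβ, against 7.4, 12.6 and 12.3% in mock. In Nnmt-OE its share was 16.5, 25.7 and 18.8% with TGFβ, against 10.7, 12.3 and 10.3% without. Every treated library had a larger Ltbp1 share than every untreated one. Summed over the 4 genes, Ltbp reads stood at 133.1 ± 13.5 CPM in mock with TGFβ against 172.5 ± 14.1 CPM in mock, and at 141.0 ± 10.8 CPM in Nnmt-OE with TGFβ against 172.9 ± 14.5 CPM in Nnmt-OE (SD, n = 3 each). Summed ligand reads were higher in treated cells, at 254.3 ± 17.4 CPM in mock with TGFβ against 204.3 ± 5.09 CPM in mock. In Nnmt-OE they summed to 268.1 ± 7.48 CPM with TGFβ against 221.1 ± 6.41 CPM without.

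**Figure D3:**
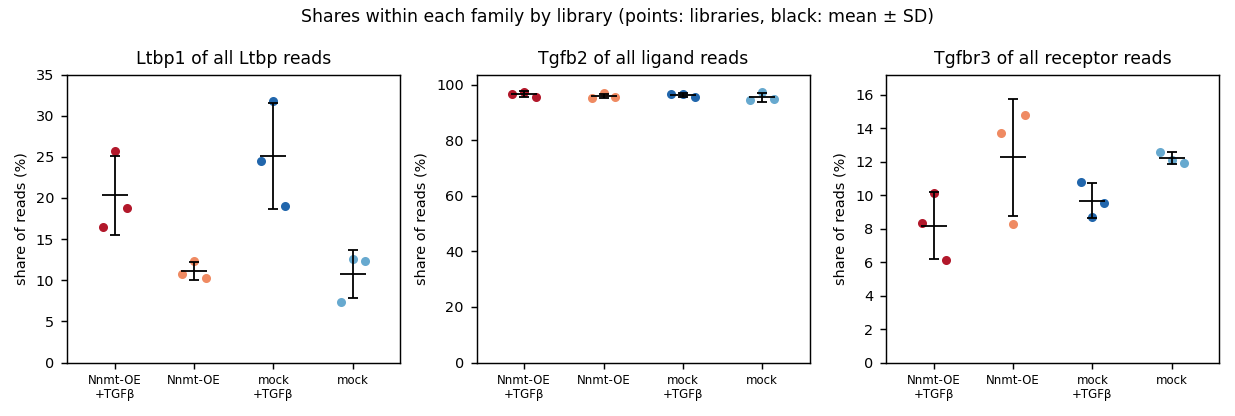
Share of reads in percent (vertical axes from 0) of Ltbp1 among the 4 Ltbp genes, Tgfb2 among the 3 ligands and Tgfbr3 among the 3 receptors in each library, with black bars for mean ± SD. The Ltbp1 share lies between 16.5 and 31.8% in the TGFβ-treated libraries and between 7.4 and 12.6% in the untreated ones, while the Tgfb2 share stays between 94.4 and 97.5% in all.

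Ltbp4 and Ltbp2 were barely detected. Ltbp4, known for its part in elastic fibre assembly, had 2, 0 and 2 reads in mock with TGFβ against 1, 2 and 12 in mock, and 0, 0 and 4 in Nnmt-OE with TGFβ against 10, 3 and 6 in Nnmt-OE. Summed, this was 4 reads in mock with TGFβ (exact Poisson 95% interval 1.09 to 10.2) against 15 in mock (8.4 to 24.7), and 4 in Nnmt-OE with TGFβ (1.09 to 10.2) against 19 in Nnmt-OE (11.4 to 29.7). Of the 15 mock reads, 12 came from replicate 3. Ltbp2, which does not bind latent TGFβ despite its name, had 19 reads in all, 0 of them in untreated Nnmt-OE, where the floor of 3 reads is worth up to 0.549 CPM in a library.

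Promoters of Tgfb2, Ltbp1 and Ltbp3 are shown because these 3 genes rose or fell under the same stimulus. RefSeq windows (GRCm38.p6), from 250 bases before to 50 bases after an annotated start, were used for 8 of the 10 genes, all but Tgfbr3 and Tgfb3. The sequences read in the direction of transcription. Capitals mark the SMAD box CAGAC, the cAMP response element TGACGTCA, the AP-1 site with the letters TGANTCA and the E-box with the letters CACGTG, each searched on both strands. The letters TATAAA were searched likewise and are left in lower case. Which start the cells used cannot be read from tags at the other end of the transcript.
Tgfb2, chr1:186705940-186706239, minus strand: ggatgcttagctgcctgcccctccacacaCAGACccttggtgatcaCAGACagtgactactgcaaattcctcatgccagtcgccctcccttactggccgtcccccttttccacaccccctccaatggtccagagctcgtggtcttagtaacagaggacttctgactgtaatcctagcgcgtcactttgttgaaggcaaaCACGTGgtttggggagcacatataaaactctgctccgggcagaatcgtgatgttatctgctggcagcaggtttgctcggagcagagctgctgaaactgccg
Ltbp1, the upstream start, chr17:75005279-75005578, plus strand: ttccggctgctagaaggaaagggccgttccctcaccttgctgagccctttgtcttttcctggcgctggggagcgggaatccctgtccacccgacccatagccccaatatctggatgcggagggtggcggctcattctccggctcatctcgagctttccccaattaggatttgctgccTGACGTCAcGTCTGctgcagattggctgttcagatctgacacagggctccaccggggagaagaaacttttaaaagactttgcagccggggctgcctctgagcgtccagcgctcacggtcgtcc
Ltbp1, the downstream start, chr17:75178531-75178830, plus strand: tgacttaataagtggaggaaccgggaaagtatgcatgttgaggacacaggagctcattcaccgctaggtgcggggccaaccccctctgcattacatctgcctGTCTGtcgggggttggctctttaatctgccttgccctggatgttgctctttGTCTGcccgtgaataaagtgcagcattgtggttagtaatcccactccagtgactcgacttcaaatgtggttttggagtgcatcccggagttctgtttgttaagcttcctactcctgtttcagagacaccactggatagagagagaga
Ltbp3, chr19:5740650-5740949, plus strand: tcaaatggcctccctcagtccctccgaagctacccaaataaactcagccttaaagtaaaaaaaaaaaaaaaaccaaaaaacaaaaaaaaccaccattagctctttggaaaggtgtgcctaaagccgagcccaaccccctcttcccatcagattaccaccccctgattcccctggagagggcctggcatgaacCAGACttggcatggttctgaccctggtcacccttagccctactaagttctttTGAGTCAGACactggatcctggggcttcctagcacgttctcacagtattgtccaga

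All 4 windows hold at least 1 SMAD box, and so do 49.6% of 32841 windows of this length. Genes not called hold them too: 1 in Tgfbr2, 1 in the downstream Tgfbr1 window and 3 in Ltbp2, which was not tested. The windows of Tgfb1 and Ltbp4 and the upstream Tgfbr1 window hold 0. Tgfb2, which rose, has 2 SMAD boxes, starting 221 and 204 bases before the start, an E-box 51 bases before it and a TATAAA 31 bases before it. An E-box is held by 7.15% of all windows and a TATAAA by 13.6%. The upstream Ltbp1 window has a cAMP response element 73 bases before the start, which 1.79% of windows hold, followed by a SMAD box 64 bases before it. The downstream Ltbp1 window has 2 SMAD boxes. The window of Ltbp3, which fell, has SMAD boxes starting 58 bases and 1 base before the start, and an AP-1 site that begins 6 bases before it and overlaps the nearer box. An AP-1 site is held by 7.81% of windows. No window of the 8 genes held the SMAD palindrome GTCTAGAC, which 0.213% of all windows hold. These matches describe letters, not bound sites.

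The construct comparison asked whether the same genes differed between cells labelled Nnmt-OE and mock. EdgeR called 0 of the 7 without TGFβ (against 0.0388% of all genes), 0 with TGFβ (against 0.0233%) and 0 pooled (against 0.0698%). At an unadjusted edgeR p under 0.05 the numbers were 0, 0 and 1 of the 7, against 753, 575 and 804 of all 12897 genes. DESeq2 also called 0 in each. Without TGFβ, 3 of 7 genes had Nnmt-OE libraries all above the mock libraries and 0 had them all below. Over all genes, ranges did not overlap in 10.9%, counting both directions. The 3 were Tgfb2 (log2 0.12 ± 0.09, edgeR adjusted p = 0.929), Tgfbr2 (0.15 ± 0.10, edgeR adjusted p = 0.897) and Tgfbr1 (0.48 ± 0.26, edgeR adjusted p = 0.845). With TGFβ, Nnmt-OE libraries stood all above mock for Tgfbr2 alone, at log2 0.17 ± 0.10 (edgeR adjusted p = 0.998), and all below for 0 of the 7. Over all genes the share was 10.2%, counting both directions. The gene with the smallest pooled p was Tgfbr2, at log2 0.16 ± 0.07 (95% interval 0.02 to 0.30, edgeR adjusted p = 0.757). The pooled 95% intervals bound the difference between Nnmt-OE and mock at 0.979 to 1.17-fold for Tgfb2, 0.949 to 1.2-fold for Ltbp3 and 0.667 to 1.37-fold for Tgfb1.

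Whether the construct altered the TGFβ effect was tested as an interaction. It called 0 of the 7 genes and 0 of all 12897 (0%) by edgeR, and 0 by DESeq2 and limma-voom, with 501 genes and 0 of the 7 at an unadjusted p under 0.05 by edgeR. Interaction values ran from -0.56 for Tgfbr1 to 0.18 for Ltbp3 on the log2 scale.

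The rest of the pathway was taken from 4 lists chosen with earlier results known, so their directions are not independent evidence. Of 18 tested partners and activators of the latent complex, 3 rose, 1 fell and 14 did not pass in the pooled TGFβ comparison, against 2.48% higher and 2.6% lower of all (median log2 0.09). The integrin β1 gene Itgb1 (log2 0.20), the fibronectin gene Fn1 (0.26), whose protein anchors LTBP1 to matrix, and Thbs1 (0.39), whose protein thrombospondin 1 can activate latent TGFβ, rose. Plat, the tissue plasminogen activator gene, fell (log2 -0.65, edgeR adjusted p = 0.000256). Within a construct, Fn1, Thbs1 and Plat were called in Nnmt-OE only and Itgb1 in neither. In mock the edgeR adjusted p was 0.516 for Fn1, 0.0943 for Thbs1, 0.0509 for Plat and 0.475 for Itgb1. Fn1 is also among the target genes counted below. Of 16 tested co-receptors, other receptors of the family and receptor-binding proteins, 1 rose and 1 fell (median 0.01). With 2.48% higher and 2.6% lower over all genes, 1 of 16 each way is no result about the list. The gene that fell was Nrp1 (-0.43, edgeR adjusted p = 0.000155), whose protein neuropilin 1 can act as a TGFβ co-receptor. Fkbp1a, whose product holds the type I receptor inactive, rose (0.21, edgeR adjusted p = 0.0424).

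Of 23 SMAD and feedback genes, 1 rose, 1 fell and 21 did not pass (median 0.01), which is near the 2.48% higher and 2.6% lower of all genes. Pmepa1, a feedback inhibitor, rose (log2 0.97, edgeR adjusted p = 2.3e-13), and Smad3, the receptor substrate, fell (-0.40, edgeR adjusted p = 0.00167). Smad3 stood at 130.3 ± 11.9 CPM in mock with TGFβ against 166.8 ± 32.6 CPM in mock (SD, n = 3 each). There the libraries overlapped and it was not called (edgeR adjusted p = 0.138). In Nnmt-OE it stood at 116.0 ± 6.71 CPM with TGFβ against 157.7 ± 9.73 CPM without (SD, n = 3 each), and was called (edgeR adjusted p = 0.0427). Of 17 tested target genes, 12 rose, 0 fell and 5 did not pass, against 2.48% higher and 2.6% lower of all (median 0.55). The 6 with the smallest adjusted p were the contractile genes Acta2 (2.18) and Tagln (1.44), the activin subunit gene Inhba (0.79), the growth factor gene Pdgfb (0.61) and the matricellular genes Postn (1.84) and Ccn1 (0.43).

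**Figure D4:**
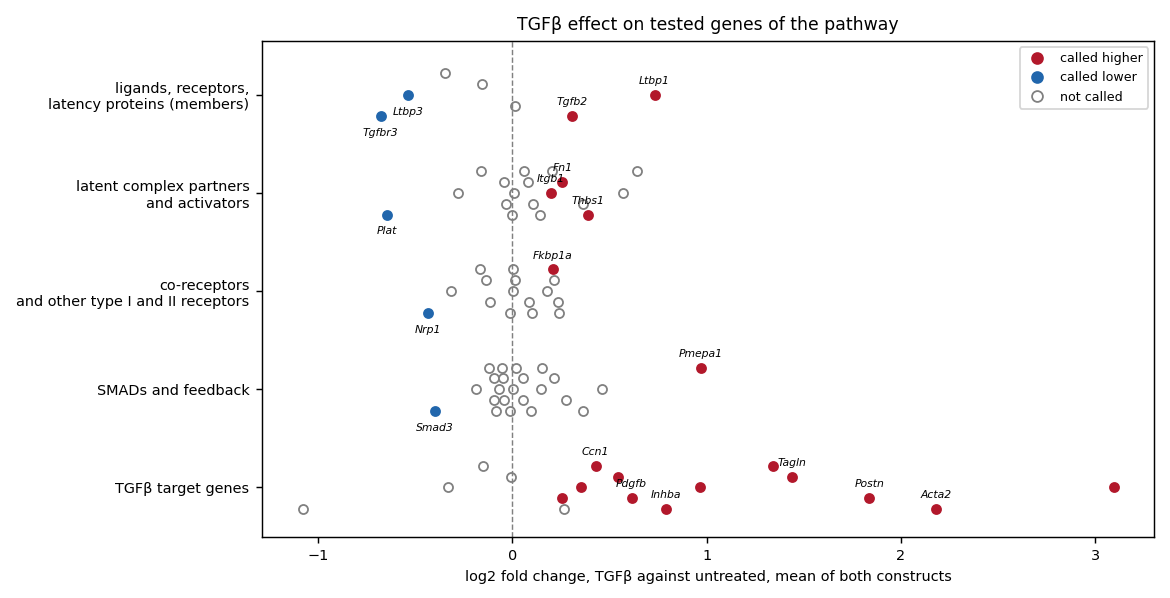
Pooled TGFβ log2 fold change (horizontal axis) of the tested ligand, receptor and latency genes and of 4 lists of pathway genes, 1 point per gene with vertical scatter for legibility. Red and blue points were called higher and lower by edgeR, and up to 6 called genes per list are named. The ligand, receptor and latency genes lie between -0.68 and 0.73, while called target genes reach beyond 2.

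For Ltbp3 and Tgfb2, the 2 genes with the smallest pooled adjusted p, the nearest profiles over the 12 libraries were picked from all named genes tested, so their small distances follow from the choice. By the root mean square difference of log2 CPM centred on each gene's mean, the 4 nearest to Ltbp3 were Eps8l2 (0.11), the lysosomal peptidase gene Tpp1 (0.118), the kinase gene Map3k1 (0.121) and the integrin α1 gene Itga1 (0.126), against a median of 0.393 over all named genes tested. The 4 nearest to Tgfb2 were the spindle gene Knstrn (0.06), the NF-κB inhibitor gene Nfkbia (0.0655), the ubiquitin ligase gene Rnf4 (0.0785) and the ribonucleotide reductase gene Rrm2 (0.0825), against a median of 0.296.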

How the data were processed

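RNA of 12 samples was made into QuantSeq libraries, which read near the polyA end of transcripts, from 100 ng each, per the labels' protocols. The authors deposited 1 table of raw counts per mouse Ensembl gene. Reads were handled with STAR and HTSeq, per the submitters' processing notes, which name the human build GRCh38 although the identifiers are from mouse. The sources used here do not give the versions, the mouse build, the annotation or the strand setting, and without strand, reads of genes that overlap on opposite strands cannot be told apart. Reads without a feature made up 26.4 to 28.79% of each library and ambiguous ones 0.603 to 0.679%, and both stayed out of the totals. Reads carry no molecular identifiers in the table.

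From these counts, genes were filtered with filterByExpr (minimum count 10, total 15), scaled by TMM and fitted over all 4 groups with edgeR 4.0.16 (robust quasi-likelihood F test, R 4.3.3). P-values were adjusted by Benjamini-Hochberg over all 12897 genes, with a threshold of 0.05. Alternatives were DESeq2 1.42.0, limma 3.58.1 voom, other scalings and filters, a replicate block, only the groups compared, and left-out libraries. Symbols and overlaps came from GENCODE M21 and promoter windows from RefSeq. All 10 genes are named, with up to 6 called genes per pathway list by smallest adjusted p, and the 4 genes most like each of the 2 members with the smallest pooled adjusted p. The members, lists and tests were chosen with earlier results of these data known. The procedure was tested on simulated data. Some items, among them 1 gene of the target list, are not reported here.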

Additional observations from a re-analysis of the deposited data

How the results depend on the processing

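The 4 calls of the pooled TGFβ comparison held in all 20 alternatives, and Ltbp3 in mock in all 21. Within a construct, calls depended more on the fit. By DESeq2, 306 genes were called for TGFβ in mock, 295 in Nnmt-OE and 26 for the pooled construct comparison. In the fit of only the groups compared the numbers were 92 in mock (with 1 of the 7 pathway genes), 351 in Nnmt-OE (with 3) and 3 for the untreated construct comparison. Without a filter, 13 genes were called for the untreated and 19 for the pooled construct comparison. Of the 7 genes, TGFβ in Nnmt-OE called 2 with library totals, 3 by DESeq2 and 2 without a filter. Leaving out 1 library gave 98 to 188 genes for TGFβ in mock and 97 to 305 in Nnmt-OE, with 1 to 2 and 0 to 2 of the 7. For the construct it gave 3 to 6 genes untreated, 1 to 3 with TGFβ and 5 to 9 pooled. The cause was not tested.

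Values that changed sign were not called in any fit. Without the 3 libraries that stood apart, Tgfb1 had log2 fold changes of 0.0067 for TGFβ in mock, -0.23 in Nnmt-OE, -0.11 pooled, 0.055 for the untreated construct comparison and -0.23 for the interaction, and the untreated construct values were -0.11 for Ltbp1 and 0.081 for Ltbp3. Library totals gave 0.019 for Ltbp3 in the untreated construct comparison. Limma-voom gave -0.0084 for Tgfb1 under TGFβ pooled and -0.0060 for Tgfbr3 in the pooled construct comparison. Leaving out 1 library, the TGFβ values of Tgfb1 ran from -0.27 to 0.14 in mock, -0.22 to 0.24 in Nnmt-OE and -0.13 to 0.11 pooled, and Tgfbr1 in mock from -0.18 to 0.10. The untreated construct values ran from -0.12 to 0.21 for Ltbp1, -0.081 to 0.079 for Ltbp3 and -0.35 to 0.054 for Tgfb1. With TGFβ they ran from -0.45 to 0.054 for Ltbp1, -0.31 to 0.16 for Tgfb1, -0.18 to 0.025 for Tgfbr1 and -0.28 to 0.017 for Tgfbr3. Pooled they ran from -0.20 to 0.056 for Ltbp1, -0.21 to 0.025 for Tgfb1 and -0.051 to 0.14 for Tgfbr3. Interaction values ran from -0.19 to 0.32 for Tgfb1 and -0.033 to 0.11 for Tgfbr2.

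With the replicate number as a block, TGFβ called 170 genes in mock, 168 in Nnmt-OE and 626 pooled, with 2, 1 and 4 of the 7, and Tgfb1 in mock stood at 0.015. Deviations of same-numbered libraries correlated at -0.102 to 0.0352 over all genes tested, and no pairing was assumed. Such values cannot show whether same-numbered libraries shared a culture or batch, because counting noise of low genes also lowers them.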
